A study of Rattus norvegicus with 18 samples.

Results

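Chemokines are small secreted proteins that bind G protein-coupled receptors and direct the movement of leukocytes along a concentration gradient. They are grouped by the spacing of cysteines near the amino terminus into CC, CXC, XC and CX3C families. In adipose tissue, adipocytes, stromal cells and macrophages make CC chemokines that draw in monocytes. In the brain, neurons make Cx3cl1 (fractalkine), microglia carry its receptor Cx3cr1, and Cxcl12 guides migrating cells and is also made by endothelium and neurons. Measured here were 9 chemokine genes of the rat, the ligands Ccl2, Ccl3, Ccl4, Ccl5, Ccl6, Ccl7, Cxcl12 and Cx3cl1 and the receptor Cx3cr1. They were taken as every probe set whose single gene symbol in the array's annotation is one of these names, which gave 11 probe sets of the 31099 in the table, and 9 of its 14217 named genes. Cxcl12 had 3 probe sets and each of the other genes had 1.

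The series set out to characterise weight loss and weight regain after Roux-en-Y gastric bypass (RYGB), in which food passes from a reduced stomach straight into a more distant stretch of gut. RYGB-Success rats were losing weight after the bypass, RYGB-Fail rats were gaining weight, and Pair-Fed rats were given as much food as the treated rats ate. Subcutaneous abdominal fat and hypothalamus were each profiled on 9 Affymetrix arrays, 3 per treatment group, from RNA samples that the series calls biological replicates. Strain, sex, age, time after surgery and whether Pair-Fed rats had a sham operation are not stated in the labels, and both comparisons with Pair-Fed rats use the same 3 Pair-Fed arrays. Values below are the deposited MAS5 signals, in array units, listed in the order of replicates 1, 2 and 3. Precision is limited by the number of arrays. In tissue RNA, fewer cells of a type and less RNA per cell cannot be told apart.

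The arrays carried the markers of their labelled tissues. The adiponectin gene Adipoq, an adipocyte marker, had signals of 17271 to 60117 in fat against 86.0 to 410 in hypothalamus, and Snap25, a nerve terminal protein, from 52.0 to 1089 in fat against 13279 to 25290 in hypothalamus. Fat RYGB-Fail array 3 stood apart, its median signal being 288 where the remaining fat arrays had 98.2 to 200, and its median correlation with them 0.730. Among hypothalamus arrays, RYGB-Success array 3 had the lowest array weight, 0.331. The ratio of 3′ to 5′ signal of the beta-actin control ran from 2.46 to 24.3 in fat and from 6.65 to 178.5 in hypothalamus. In hypothalamus the highest ratio was that of Pair-Fed array 2, and the next was 48.5. Other tissue also differed between arrays: skeletal muscle markers summed to 1723 to 124170 on the fat RYGB-Fail arrays against 116 to 344 on the Pair-Fed ones, and T and NK lymphocyte markers to 17634 on fat RYGB-Success array 3 against 1414 to 2701 on the other fat arrays.

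Several of the chemokines lay near background. A probe set was tested within a tissue if its mean log2 signal was in the upper 60% of all probe sets, which set the limit at a signal of 88.9 in fat and 52.7 in hypothalamus. For comparison, 27 probe sets for bacterial spike and control sequences had a 95th percentile of 81.0 in fat and 53.0 in hypothalamus, and single signals of up to 181 and 94.2. All Ccl3 signals of RYGB-Fail and Pair-Fed fat, and 2 of the 3 Ccl6 signals of Pair-Fed hypothalamus, lie within that range. So do all Cx3cl1 signals in fat except RYGB-Success arrays 1 and 2, and all Ccl5 signals in hypothalamus except RYGB-Success array 2. In fat, 9 of the 11 chemokine probe sets passed. Ccl4 and Cx3cr1 did not, with 5 and 7 of 9 arrays under the limit, while Cx3cl1 passed with 3 of 9 arrays under it, and Ccl3 and the Cxcl12 probe set 1387655_at with 1 of 9 each. In hypothalamus 5 of 11 passed. Ccl2 and Ccl7 were under the limit on 9 of 9 arrays, Ccl3 on 8, Cx3cr1 on 7, Ccl4 on 6 and Cxcl12 1387655_at on 4, and their differences between groups were not tested. Ccl5 in hypothalamus lay just inside the limit, with 4 of 9 arrays under it. Cx3cr1 gave no usable signal in either tissue, although it marks microglia and the hypothalamus arrays carried microglial genes such as Csf1r (335 to 471) and Aif1 (353 to 620). A probe set near background is read as not measured here, not as a gene that is off.

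**Figure D1:**
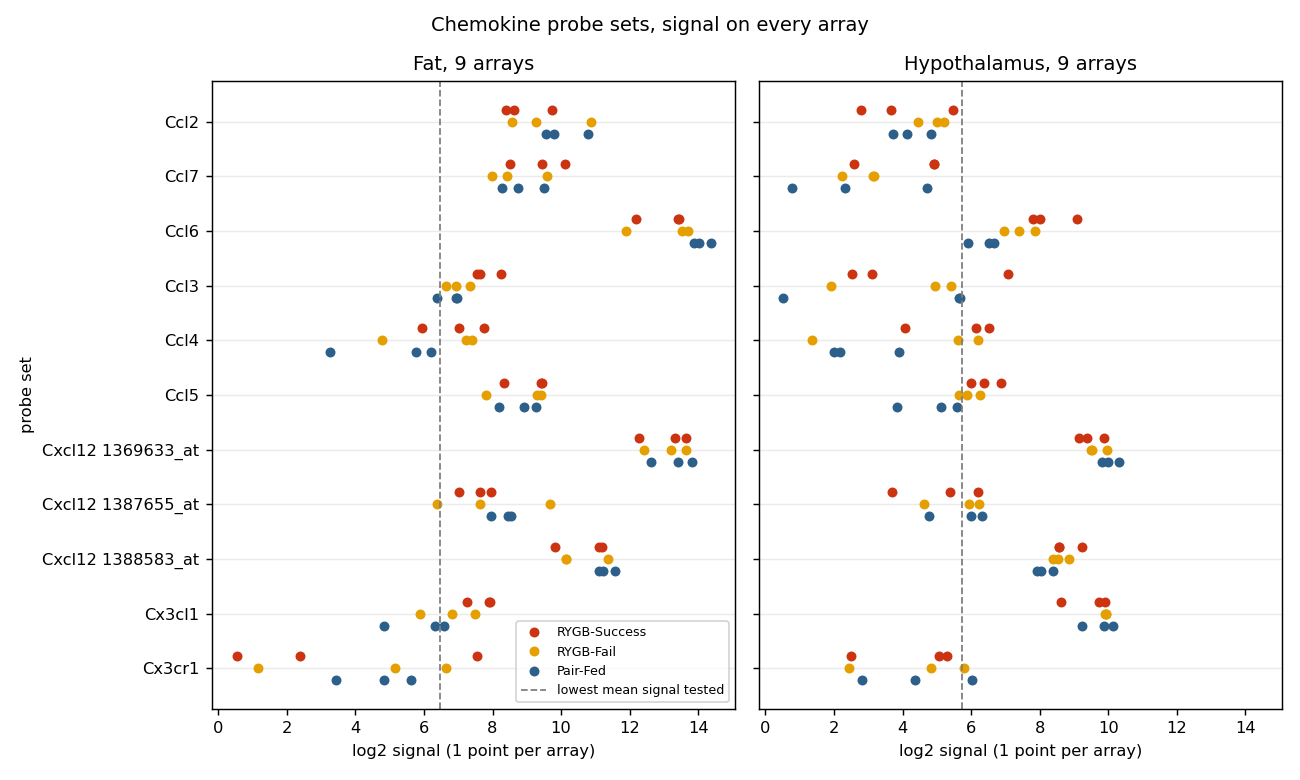
Log2 signal of the 11 chemokine probe sets in fat (left) and hypothalamus (right). Each point is 1 array, coloured by treatment group with RYGB-Success above RYGB-Fail above Pair-Fed, and the dashed line is the lowest mean signal tested (88.9 in fat, 52.7 in hypothalamus). Ccl6 and Cxcl12 1369633_at lie far right of the line in fat, and Ccl2 and Ccl7 lie left of it on all 9 hypothalamus arrays.

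Of these 9 genes, 6 lie on rat chromosome 10. Ccl2 and Ccl7 are next to each other among the protein-coding genes of the RefSeq GRCr8 assembly, and Ccl5, Ccl6, Ccl3 and Ccl4 form another group on the same chromosome. RefSeq promoter windows of that assembly were at hand for 5 of the 9 genes. The windows of 3 genes are shown because these genes set fat and hypothalamus apart below: Ccl6 and Cxcl12 with higher signals in fat, and Cx3cl1 with a higher signal in hypothalamus. Each holds the 250 bases before the annotated start, 5′ to 3′ on the gene's strand. Ccl6 is at chr10:68883367-68883616 on the minus strand, Cxcl12 at chr4:152060531-152060780 on the plus strand and Cx3cl1 at chr19:10242821-10243070 on the minus strand. Capitals mark the TATA box core TATAAA and the ETS family motif CAGGAAGT, which reads ACTTCCTG on the shown strand.
Ccl6: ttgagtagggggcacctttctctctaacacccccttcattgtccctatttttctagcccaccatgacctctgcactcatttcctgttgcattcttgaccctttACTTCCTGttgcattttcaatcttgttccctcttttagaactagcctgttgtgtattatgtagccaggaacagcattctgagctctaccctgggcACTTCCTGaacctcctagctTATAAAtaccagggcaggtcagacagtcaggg
Cxcl12: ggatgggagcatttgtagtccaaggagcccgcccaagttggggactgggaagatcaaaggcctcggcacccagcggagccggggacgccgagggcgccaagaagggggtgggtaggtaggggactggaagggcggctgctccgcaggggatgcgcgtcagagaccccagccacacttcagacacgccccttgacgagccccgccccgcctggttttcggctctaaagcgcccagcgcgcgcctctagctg
Cx3cl1: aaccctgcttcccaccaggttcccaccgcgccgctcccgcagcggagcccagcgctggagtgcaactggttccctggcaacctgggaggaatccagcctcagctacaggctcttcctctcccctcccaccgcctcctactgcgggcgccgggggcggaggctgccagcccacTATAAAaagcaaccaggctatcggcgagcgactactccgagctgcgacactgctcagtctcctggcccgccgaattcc

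The Ccl6 window held 0 CG dinucleotides and 46.8% G and C, against 20 and 67.6% in Cxcl12 and 18 and 66.4% in Cx3cl1. In the Ccl6 window TATAAA began at position -32 from the start and the ETS motif at -147 and -52, both on the opposite strand. TATAAA began at -78 in Cx3cl1 and at -34 in the Ccl7 window, and neither motif was found in Cxcl12. Both strands were searched. Among 33469 rat windows of the same length, 12.9% held TATAAA and 2.48% held CAGGAAGT. An NF-kB consensus, also searched, was in 1.30% of all windows and in none of the 5. The motifs were chosen after the sequences had been read, and a match describes letters only.

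The clearest contrast among these genes was between the tissues. On all 18 arrays together 7 of the 11 probe sets passed the filter, and all 7 differed between fat and hypothalamus at an adjusted p under 0.05 (limma over 18625 probe sets, Benjamini-Hochberg), where 65.2% of all probe sets tested did so. For 6 of them the 9 fat arrays lay above the 9 hypothalamus arrays without overlap, as for 13.8% of all probe sets. For 1 of them, Cx3cl1, they lay below, as for 13.1%. Ccl2, Ccl5 and Cxcl12 1387655_at passed this filter through their fat signals, their hypothalamus means being under its limit of 71.7. The count of 7 is thus partly set by the filter. Leaving out any single array, and each other setting tried, left the 7 calls and their directions as they were wherever the probe set was tested.

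Ccl6, a CC chemokine of rodents that macrophages and neutrophils make in mice, had a median signal of 11701 over the 9 fat arrays (3799 to 21404), against 169 over the 9 hypothalamus arrays (60.2 to 544). It was higher in fat by 6.02 ± 0.27 (log2 difference ± SE), or 64.9-fold, with a limma adjusted p of 1.83e-12. Ccl2, the main attractant of monocytes carrying Ccr2, ran from 339 to 1883 in fat, against 6.85 to 44.2 in hypothalamus. Because hypothalamus was under the limit of this 18-array fit, 71.7, its fold is a bound, at least 10.2-fold higher in fat (limma adjusted p = 2.63e-09). Ccl5, made by T and NK cells among others, ran from 224 to 693 in fat, against 14.4 to 118 in hypothalamus, and was at least 6.135-fold higher in fat (limma adjusted p = 6.75e-08).

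Cx3cl1 ran the other way. Its 9 fat arrays had a median of 112 (28.7 to 245), against 951 (392 to 1117) in hypothalamus, a log2 difference of -2.92 ± 0.28 or 7.56-fold lower in fat (limma adjusted p = 4.64e-08). The 3 Cxcl12 probe sets all gave higher signals in fat. The log2 differences were 3.43 ± 0.22 for 1369633_at, 2.46 ± 0.45 for 1387655_at and 2.36 ± 0.22 for 1388583_at, with limma adjusted p-values of 1.7e-10, 0.000106 and 3.06e-08. Hypothalamus was under the limit for 1387655_at, whose fold is at least 3.31. Ccl7, Ccl3 and Ccl4 were too low for this test. Their hypothalamus means were under the limit, so Ccl7 was at least 6.915-fold and Ccl3 at least 1.88-fold higher in fat, and for Ccl4 no bound above 1 could be given. With no filter their limma adjusted p-values were 7.16e-09, 0.00136 and 0.0266. Centring each array on its median lowered the log2 difference of Ccl6 to 5.48 and that of Cxcl12 1388583_at to 1.81, and took Cx3cl1 to -3.46.

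**Figure D2:**
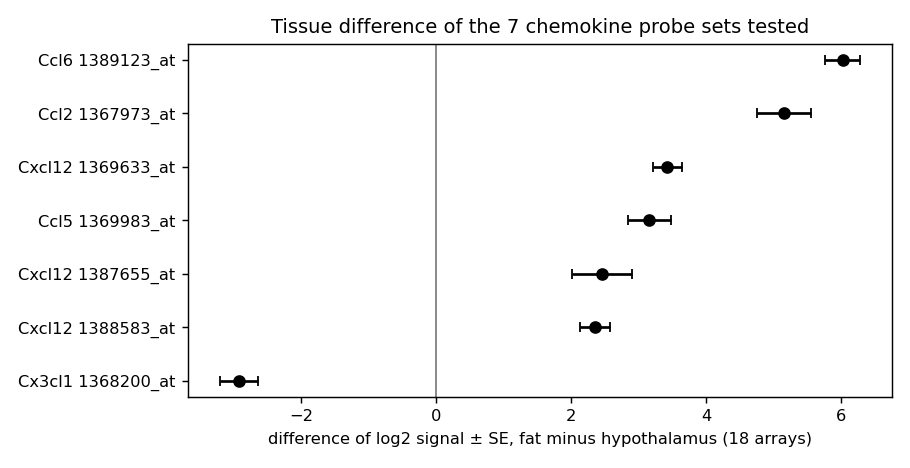
Difference of log2 signal, fat minus hypothalamus, of the 7 chemokine probe sets tested in 18 arrays; points are limma estimates, bars are ± 1 SE, and the vertical line marks 0. Ccl6 is at 6.02 and Cx3cl1 at -2.92.

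Within the tissues, no chemokine passed the test between treatment groups. In fat 0 of 9 probe sets had an adjusted p under 0.05 in any of the 3 pairwise comparisons or in the mean of both bypass groups against Pair-Fed, and 0% of all 18625 probe sets did (limma). At an unadjusted p under 0.05 the numbers were 2 of 9 for RYGB-Success against Pair-Fed, 1 of 9 for RYGB-Fail against Pair-Fed and 0 of 9 between the bypass groups. The corresponding numbers over all 18625 probe sets were 905, 501 and 1060. The 2 were Ccl6 and Cx3cl1. Cx3cl1 passed the filter only through the bypass arrays, its Pair-Fed geometric mean of 60.4 being under the limit of 88.9. In hypothalamus 0 of 5 passed in each comparison, and the share of all probe sets called was 0.0107% for RYGB-Success against Pair-Fed, 0% for RYGB-Fail against Pair-Fed and 0.00537% between the bypass groups. At an unadjusted p under 0.05 there were 4 of 5, 1 of 5 and 1 of 5, and over all 18625 probe sets 2447, 445 and 1120. The 4 were Ccl5, Ccl6 and the Cxcl12 probe sets 1369633_at and 1388583_at, which had opposite directions. Ccl5 passed the filter only through the bypass arrays, its Pair-Fed geometric mean of 28.9 being under the limit of 52.7. The values that follow are therefore descriptions of 3 arrays a group, and a p that misses the threshold does not show that the groups were alike.

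Ccl6 was the chemokine for which both bypass groups lay apart from Pair-Fed rats in both tissues, in opposite directions. In fat its signals were 10939, 11056 and 4672 in RYGB-Success rats and 13190, 11702 and 3799 in RYGB-Fail rats, against 21404, 15180 and 16635 in Pair-Fed rats. All 6 bypass arrays lay below all 3 Pair-Fed arrays, as for 1.18% of the probe sets tested. Taken by group, 7.69% of probe sets lay below Pair-Fed without overlap in RYGB-Success fat and 4.33% in RYGB-Fail fat. The log2 difference from Pair-Fed was -1.09 ± 0.47 for RYGB-Success and -1.07 ± 0.47 for RYGB-Fail, with unadjusted p-values of 0.0387 and 0.0415 and adjusted p-values of 0.972 and 1 (limma). In each bypass group array 3 was the lowest. Without RYGB-Success array 3 the first difference was -0.67, and without RYGB-Fail array 3, the array that stood apart, the second was -0.50 (-0.58 with array weights). Centring each array on its median gave -1.46 for the first.

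In hypothalamus Ccl6 signals were 225, 255 and 544 in RYGB-Success rats and 169, 235 and 124 in RYGB-Fail rats, against 60.2, 92.2 and 102 in Pair-Fed rats. Again the 6 bypass arrays did not overlap with the Pair-Fed arrays, here lying above them, as for 2.45% of the probe sets tested. The log2 difference from Pair-Fed was 1.93 ± 0.39 for RYGB-Success (unadjusted p = 0.000236, adjusted p = 0.192, limma), which ranked 22 of 18625 by p. For RYGB-Fail it was 1.04 ± 0.39 (unadjusted p = 0.0194, adjusted p = 1, limma). Leaving out RYGB-Success array 3, the highest array, gave 1.53 for the first (adjusted p = 0.379, limma). Between the bypass groups the arrays overlapped, with a log2 difference of 0.89 ± 0.39 for RYGB-Success over RYGB-Fail (adjusted p = 0.784, limma).

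The difference between the tissues in the Ccl6 response, looked at because of these values, was also estimated in the 18-array fit. The change in fat minus the change in hypothalamus was -3.01 ± 0.65 on the log2 scale for RYGB-Success against Pair-Fed (unadjusted p = 0.000201, adjusted p = 0.278, rank 13 of 18625, limma). It was -2.10 ± 0.65 for RYGB-Fail against Pair-Fed (adjusted p = 1, limma), or -1.39 after quantile scaling and -1.47 with array weights. Neither passed, and 0% of all probe sets did. The RYGB-Success value passed in 1 of 27 alternatives, with an adjusted p of 0.0416 without fat RYGB-Fail array 3, and its adjusted p over the alternatives ran from 0.0416 to 0.717.

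**Figure D3:**
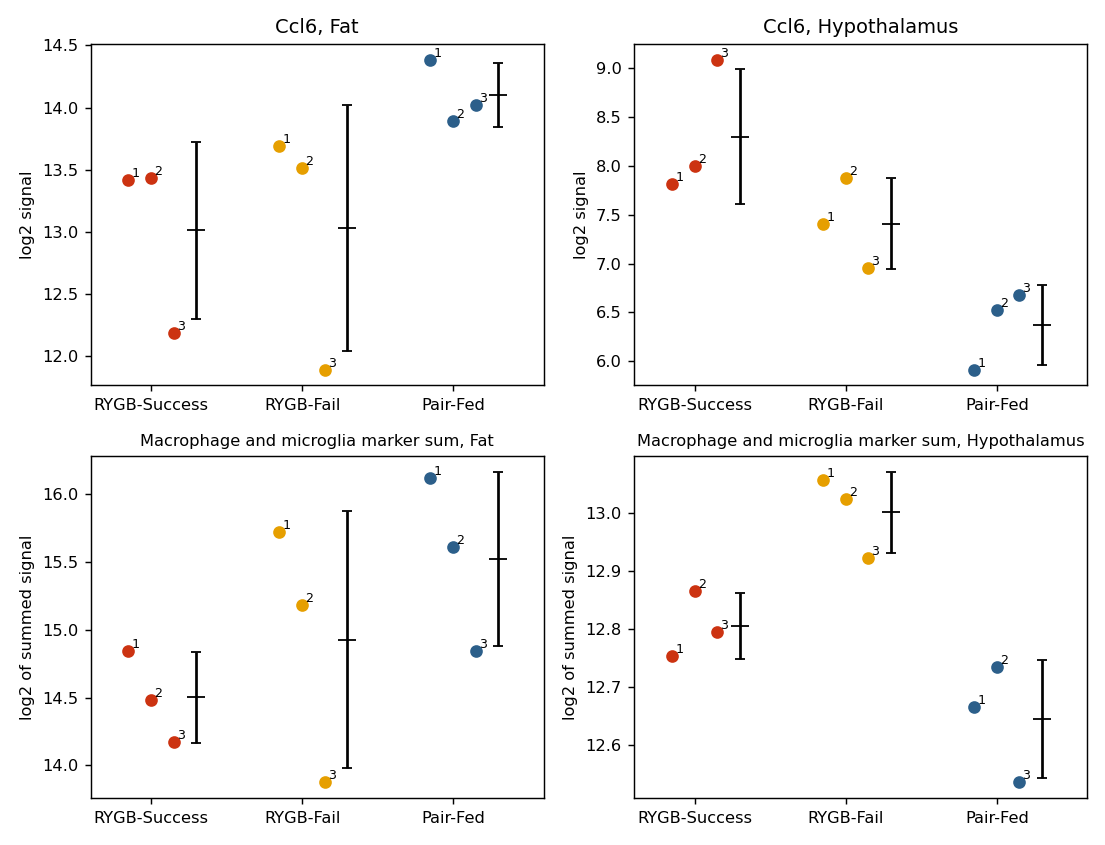
Ccl6 log2 signal (top) and log2 of the summed signal of 15 macrophage and microglia markers (bottom) in fat (left) and hypothalamus (right), for the 3 treatment groups. Points are arrays numbered by replicate and bars are the mean ± SD of 3 arrays; the axes do not start at 0. Ccl6 in the bypass groups lies below Pair-Fed in fat and above it in hypothalamus.

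Macrophage and microglia markers were also lower in fat of the bypass groups on average. The summed signal of the 15 markers, all on the array and none at 0, was 29425, 22891 and 18508 in RYGB-Success fat and 53978, 37256 and 15019 in RYGB-Fail fat, against 71164, 49937 and 29430 in Pair-Fed fat. Of 13 tested in fat, 13 had a lower mean in RYGB-Success than in Pair-Fed rats, with 5 not overlapping, where 7.69% of all probe sets lay lower without overlap, and a median log2 difference of -1.01 against 0.11 for all probe sets. For RYGB-Fail 12 of 13 were lower, with a median of -0.42 against -0.09. In hypothalamus the sum was 6906, 7469 and 7112 in RYGB-Success rats and 8519, 8331 and 7767 in RYGB-Fail rats, against 6498, 6821 and 5941 in Pair-Fed rats. Both bypass groups lay above Pair-Fed, with RYGB-Fail the highest, whereas for Ccl6 RYGB-Success had the highest mean. Of the 13 markers tested there, 2 lay above Pair-Fed without overlap in RYGB-Success rats and 7 in RYGB-Fail rats, against 10.8% and 5.81% of all probe sets. In no comparison between treatment groups did a marker of this list pass the test. Fibroblast markers, 6 of 6 on the array and tested, likewise had lower means in fat of both bypass groups. They summed to 57357, 72469 and 25127 in RYGB-Success fat and 85564, 62538 and 37822 in RYGB-Fail fat, against 115870, 106200 and 84389 in Pair-Fed fat. Without overlap 6 of 6 lay lower in RYGB-Success fat and 4 of 6 in RYGB-Fail fat, against 7.69% and 4.33% of all probe sets. Their median log2 differences from Pair-Fed were -1.32 and -0.87, and none passed the test.

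The scavenger receptor Cd163 and the mannose receptor Mrc1 mark resident and perivascular macrophages, and their values were picked out after they had been seen. Cd163 in fat was 3661, 3657 and 2587 in RYGB-Success rats and 5099, 4253 and 2636 in RYGB-Fail rats, against 9060, 10985 and 3962 in Pair-Fed rats. In hypothalamus it was 82.1, 178 and 337 in RYGB-Success rats and 97.8, 174 and 107 in RYGB-Fail rats, against 43.8, 108 and 7.11 in Pair-Fed rats, with overlap in both bypass groups. In fat, Mrc1 signals were 8151, 8820 and 5325 with RYGB-Success and 14445, 10603 and 5478 with RYGB-Fail. Pair-Fed fat had 20071, 17633 and 10646. The hypothalamus signals of Mrc1 were 329, 444 and 1113 with RYGB-Success and 339, 547 and 396 with RYGB-Fail. Pair-Fed hypothalamus had 321, 565 and 250, and the groups overlapped. Blood markers, led by haemoglobin beta, also differed in hypothalamus, with a sum of 13546 to 26347 in RYGB-Success rats and 3512 to 8141 in RYGB-Fail rats, against 3141 to 12520 in Pair-Fed rats. In fat their sum was 15193 to 41590 in RYGB-Success rats and 2910 to 7126 in RYGB-Fail rats, against 5225 to 8565 in Pair-Fed rats. The part of fibroblasts, other cells or blood in the Ccl6 values was not tested.

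Among the monocyte attractants, Ccl2 overlapped between all groups in fat. Its signals were 395, 339 and 846 in RYGB-Success rats and 1883, 379 and 617 in RYGB-Fail rats, against 1770, 891 and 752 in Pair-Fed rats. RYGB-Fail array 1 and Pair-Fed array 1 were the highest, and the range over the 9 arrays was 5.56-fold. The adjusted p of Ccl2 was 0.975 for RYGB-Success against Pair-Fed and 1 for RYGB-Fail against Pair-Fed (limma). In hypothalamus Ccl2 was 44.2, 6.85 and 12.6 in RYGB-Success rats and 21.8, 37.2 and 31.9 in RYGB-Fail rats, against 13.2, 17.4 and 28.7 in Pair-Fed rats, all near background.

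Ccl7, the neighbour of Ccl2 that also acts on Ccr2, was 695, 363 and 1114 in RYGB-Success fat and 777, 341 and 252 in RYGB-Fail fat, against 723, 430 and 312 in Pair-Fed fat. The groups overlapped, and RYGB-Success array 3 had the highest signal. All 9 hypothalamus arrays had between 1.73 and 30.3.

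Ccl3, Ccl4 and Ccl5 are CC ligands made by activated macrophages and lymphocytes. Ccl3 was 186, 199 and 304 in RYGB-Success fat and 121, 100 and 162 in RYGB-Fail fat, against 125, 122 and 83.6 in Pair-Fed fat. The RYGB-Success arrays lay above both other groups, as for 10.9% of probe sets against Pair-Fed and 5.26% against RYGB-Fail. The log2 differences were 1.05 ± 0.52 from Pair-Fed and 0.84 ± 0.52 from RYGB-Fail, with limma adjusted p-values of 0.975 and 0.895. Centring on the array median brought them to 0.67 and 0.54. T and NK lymphocyte markers summed to 2695, 2423 and 17634 in RYGB-Success fat and 2485 to 2701 in RYGB-Fail fat, against 1414 to 2526 in Pair-Fed fat. Only RYGB-Success array 3, which also had the highest Ccl3 signal, stood apart, and none of the 9 markers passed the test. Their part in the Ccl3 values was not tested. In hypothalamus Ccl3 ran from 1.42 to 134.

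Ccl4 in fat was 61.1, 130 and 217 in RYGB-Success rats and 170, 150 and 27.5 in RYGB-Fail rats, against 54.9, 9.54 and 73.1 in Pair-Fed rats. These signals straddle the limit and the groups overlapped. In hypothalamus they ran from 2.57 to 92.0.

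Ccl5 in fat was 693, 322 and 681 in RYGB-Success rats and 688, 625 and 224 in RYGB-Fail rats, against 481, 291 and 615 in Pair-Fed rats, with overlapping groups. In hypothalamus it was 82.8, 118 and 64.2 in RYGB-Success rats and 77.1, 59.0 and 50.1 in RYGB-Fail rats, against 14.4, 48.0 and 34.8 in Pair-Fed rats. Both bypass groups lay above Pair-Fed without overlap, as for 10.8% of probe sets with RYGB-Success and 5.81% with RYGB-Fail, but all 3 Pair-Fed arrays and RYGB-Fail array 3 were under the limit of 52.7. The folds over Pair-Fed are therefore bounds of at least 1.62 for RYGB-Success and at least 1.16 for RYGB-Fail, with limma adjusted p-values of 0.299 and 1. The fitted log2 differences were 1.57 ± 0.58 and 1.08 ± 0.58, and with signals held at the limit they were 0.70 and 0.24. Without Pair-Fed array 1 the RYGB-Fail difference was 0.58. The summed signal of 9 T and NK lymphocyte markers was 399 to 413 in RYGB-Success hypothalamus and 367 to 494 in RYGB-Fail hypothalamus, against 182 to 296 in Pair-Fed hypothalamus, and only 2 of the 9 passed the filter there. Their part in the Ccl5 values was not tested.

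Cxcl12, the ligand of Cxcr4 and of the scavenging receptor Ackr3, did not separate the groups in fat on any of its probe sets. For 1369633_at the fat signals were 12664, 10281 and 4959 in RYGB-Success rats and 12716, 9450 and 5444 in RYGB-Fail rats, against 14536, 10788 and 6346 in Pair-Fed rats. Array 3 was the lowest in each group. For 1388583_at they were 2212, 2349 and 913 in RYGB-Success rats and 2653, 1133 and 1126 in RYGB-Fail rats, against 2192, 2368 and 3042 in Pair-Fed rats. For 1387655_at the 9 fat arrays ran from 83.9 to 817.

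In hypothalamus the probe sets of Cxcl12 disagreed. By 1369633_at the signals were 672, 572 and 931 in RYGB-Success rats and 718, 729 and 1000 in RYGB-Fail rats, against 1264, 895 and 1026 in Pair-Fed rats. The log2 means were 9.47 ± 0.36 in RYGB-Success rats and 9.65 ± 0.27 in RYGB-Fail rats, against 10.04 ± 0.25 in Pair-Fed rats (SD, n = 3 each), and the groups overlapped. By 1388583_at the signals were 378, 604 and 375 in RYGB-Success rats and 335, 460 and 370 in RYGB-Fail rats, against 262, 335 and 245 in Pair-Fed rats. The log2 means there were 8.78 ± 0.39 in RYGB-Success rats and 8.59 ± 0.24 in RYGB-Fail rats, against 8.12 ± 0.24 in Pair-Fed rats (SD, n = 3 each). The RYGB-Success arrays lay above the Pair-Fed arrays without overlap, as for 10.8% of probe sets. Their log2 difference was 0.67 ± 0.27 (adjusted p = 0.337, limma), or 0.44 without RYGB-Success array 2 and 0.43 with median centring. The corresponding difference for 1369633_at was -0.57 ± 0.25 (adjusted p = 0.369, limma). No single direction can be given for Cxcl12, and which transcripts each probe set reads was not examined.

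**Figure D4:**
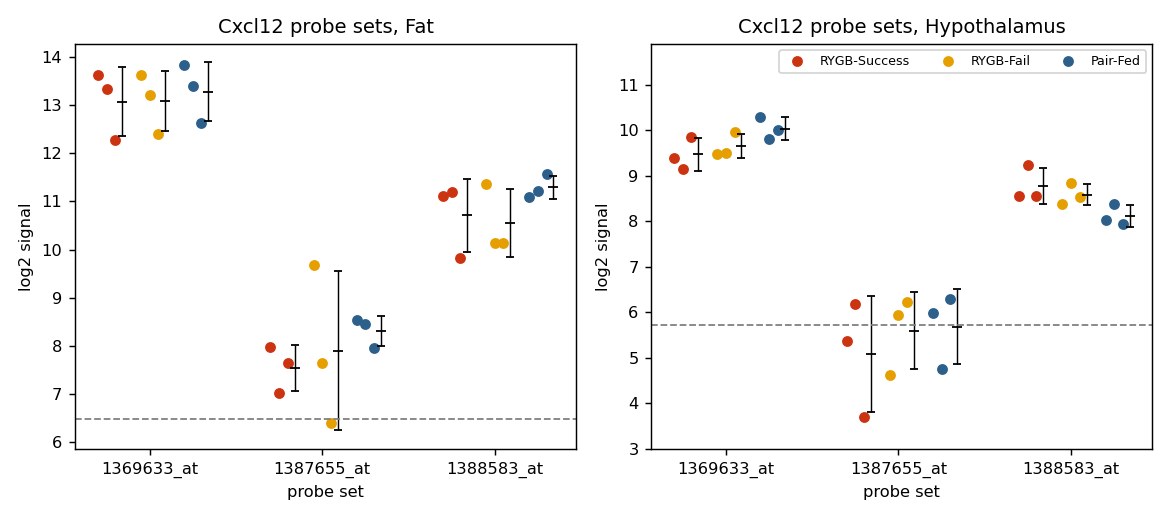
Log2 signal of the 3 Cxcl12 probe sets in fat (left) and hypothalamus (right), 1 point per array, with the mean ± SD of 3 arrays beside each group; the dashed line is the lowest mean signal tested. In hypothalamus the RYGB-Success mean is below the Pair-Fed mean for 1369633_at (9.47 against 10.04) and above it for 1388583_at (8.78 against 8.12).

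Cx3cl1 is a membrane-bound chemokine that is shed by proteases such as Adam17 and signals to microglia and monocytes through Cx3cr1. In hypothalamus its signals were 951, 852 and 392 in RYGB-Success rats and 985, 968 and 970 in RYGB-Fail rats, against 608, 937 and 1117 in Pair-Fed rats. The 3 RYGB-Success arrays lay below the 3 RYGB-Fail arrays, as for 4.69% of probe sets, with a log2 difference of -0.51 ± 0.32 (adjusted p = 0.784, limma). This rested on RYGB-Success array 3, without which it was -0.11, and it was -0.20 with array weights. In fat Cx3cl1 was 238, 245 and 152 in RYGB-Success rats and 59.2, 112 and 178 in RYGB-Fail rats, against 28.7, 80.6 and 95.2 in Pair-Fed rats. The RYGB-Success arrays lay above the Pair-Fed arrays, as for 10.9% of probe sets, and 2 of the 3 Pair-Fed arrays were under the limit. The fold is thus a bound of at least 2.275, and the fitted log2 difference was 1.78 ± 0.71 (unadjusted p = 0.0287, adjusted p = 0.913, limma), or 1.19 with signals held at the limit. Epithelial markers summed to 400, 5980 and 4135 in RYGB-Success fat and 165, 275 and 1023 in RYGB-Fail fat. Pair-Fed fat had sums of 339, 240 and 318. The part of these markers in the Cx3cl1 values was not tested.

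The receptor Cx3cr1 was 1.45, 188 and 5.26 in RYGB-Success fat and 2.24, 35.6 and 101 in RYGB-Fail fat, against 10.8, 28.4 and 49.3 in Pair-Fed fat. In hypothalamus it was 39.1, 5.66 and 33.3 in RYGB-Success rats and 5.42, 28.6 and 55.8 in RYGB-Fail rats, against 7.08, 20.8 and 65.7 in Pair-Fed rats. The groups overlapped, 7 of the 9 arrays in each tissue were under the limit, and no order of the groups is given.

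The rest of the chemokine system was read from lists of other ligands, receptors, atypical receptors that take up chemokines without G protein signalling, and proteases that cut them. On the array were 23 of 29 other ligands, 11 of 18 receptors, 5 of 5 atypical receptors and 5 of 6 proteases. None passed the test between treatment groups in either tissue (limma), where in fat 16 ligands, 4 receptors, 4 atypical receptors and 3 proteases were tested and in hypothalamus 6, 1, 2 and 2. The median log2 difference of RYGB-Success from Pair-Fed in fat was 0.31 for the ligands, 0.62 for the receptors, -0.83 for the atypical receptors and -0.73 for the proteases, against 0.11 for all probe sets.

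Pf4 (Cxcl4), a CXC chemokine of platelets that macrophages also make, had the same pattern of non-overlap in hypothalamus as Ccl6, found for 2.45% of the probe sets tested. Its signals were 169, 214 and 198 in RYGB-Success rats and 76.5, 131 and 171 in RYGB-Fail rats, against 34.3, 62.6 and 3.91 in Pair-Fed rats. Pf4 passed the filter only through the bypass arrays, its Pair-Fed mean being under the limit of 52.7. It was at least 3.45-fold higher in RYGB-Success (adjusted p = 0.215, limma) and at least 2.14-fold higher in RYGB-Fail (adjusted p = 1, limma) than in Pair-Fed rats. In fat Pf4 was 780, 455 and 566 in RYGB-Success rats and 1651, 1546 and 274 in RYGB-Fail rats, against 2760, 2705 and 1061 in Pair-Fed rats. There the RYGB-Success arrays were lower than Pair-Fed without overlap, as for 7.69% of probe sets, and the RYGB-Fail arrays overlapped with both.

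**Figure D5:**
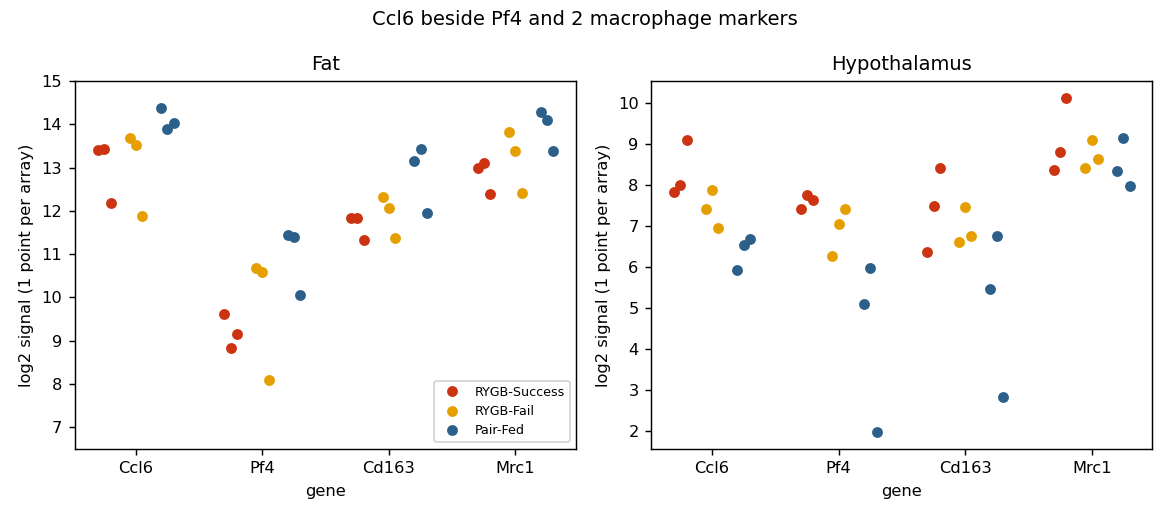
Log2 signal of Ccl6, Pf4 and the macrophage markers Cd163 and Mrc1 in fat (left) and hypothalamus (right), 1 point per array, with RYGB-Success left of RYGB-Fail left of Pair-Fed for each gene. Ccl6 and Pf4 lie above Pair-Fed in both bypass groups of the hypothalamus, while Cd163 and Mrc1 overlap there; the genes were picked after their values were seen.

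Among receptors in fat, Ccr1, which binds Ccl3, Ccl5 and Ccl7, was 173, 24.1 and 97.8 in RYGB-Success rats and 752, 298 and 134 in RYGB-Fail rats, against 984, 436 and 215 in Pair-Fed rats. It was at least 3.94-fold lower in RYGB-Success than in Pair-Fed fat (adjusted p = 0.735, limma). Ccr1 passed the filter through the RYGB-Fail and Pair-Fed arrays, its RYGB-Success mean being under the limit of 88.9. Ackr4, an atypical receptor that takes up Ccl19 and Ccl21, was 503, 543 and 539 in RYGB-Success fat and 1351, 626 and 918 in RYGB-Fail fat, against 1216, 1541 and 1229 in Pair-Fed fat. RYGB-Success lay below Pair-Fed without overlap, as for 7.69% of probe sets. The log2 differences were -1.32 ± 0.34 from Pair-Fed and -0.80 ± 0.34 from RYGB-Fail (adjusted p = 0.628 and 0.850, limma). Ccl24, an attractant of eosinophils, was 170, 167 and 25.8 in RYGB-Success fat and 797, 172 and 203 in RYGB-Fail fat, against 1217, 352 and 268 in Pair-Fed fat (adjusted p = 0.793 for RYGB-Success against Pair-Fed, limma). Ccl19, which attracts T cells and dendritic cells, was 188, 143 and 1418 in RYGB-Success fat and 67.4, 56.8 and 134 in RYGB-Fail fat, against 117, 20.8 and 59.0 in Pair-Fed fat. The RYGB-Success arrays lay above both other groups, as for 10.9% of probe sets against Pair-Fed and 5.26% against RYGB-Fail. Ccl19 was higher by at least 3.45-fold over Pair-Fed and at least 3.30-fold over RYGB-Fail (adjusted p = 0.796 and 0.877, limma). It passed the filter only through the RYGB-Success arrays, the means of both other groups being under the limit of 88.9. RYGB-Success array 3 was far above the other 2 arrays of its group.

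The receptors that bind Cxcl12, Cxcr4 and Ackr3, overlapped between all groups in hypothalamus. In fat Ackr3 was 2980, 6053 and 3596 in RYGB-Success rats and 9080, 6502 and 1738 in RYGB-Fail rats, against 7554, 7448 and 7449 in Pair-Fed rats. The RYGB-Success arrays lay below the Pair-Fed arrays without overlap, as for 7.69% of probe sets, with a log2 difference of -0.90 ± 0.51 (adjusted p = 0.975, limma). Cxcr4 in fat was 4297, 4043 and 12429 in RYGB-Success rats and 5359, 3588 and 2821 in RYGB-Fail rats, against 2747, 3412 and 4450 in Pair-Fed rats, with overlapping groups.

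Between tissues, 6 of 9 other ligands tested were higher in fat and 1 was lower, where 65.2% of all probe sets were called. The CXC chemokine Cxcl13, which attracts B cells, was at least 44.5-fold higher in fat (adjusted p = 6.24e-10, limma), and Ccl27, a skin chemokine, was lower by a log2 difference of -1.95 ± 0.29 (adjusted p = 1e-05, limma). Cxcr4 was higher in fat by 2.70 ± 0.21 and Ackr3 by 3.38 ± 0.27 on the log2 scale, as was their ligand Cxcl12. All 4 atypical receptors and all 3 proteases tested were higher in fat, beside that same share of all probe sets. Among those higher in fat, Ccl9, Ccl11, Cxcl9, Cxcl13, Ackr2, Ackr4 and Dpp4 passed the filter through their fat signals. Their hypothalamus means were under its limit, so these counts are partly set by the filter.

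The genes whose log2 signals followed Ccl6 and Ccl2 most closely over the 9 arrays of a tissue were listed by Pearson's r, among 13217 named probe sets tested in fat and 13637 in hypothalamus. For Ccl6 in fat they were Gna12 (r = 0.976), Mkln1 (0.965), Gucy1b1 (0.962), Sec22b (0.960) and Pxylp1 (0.959). For Ccl6 in hypothalamus they were Slc41a3 (r = 0.960), Atp5mg (0.958), Txn1 (0.954), Ogdh (0.947) and Rpl6 (0.947), so that none of the 5 was shared between the tissues. For Ccl2 in fat they were RT1-DMa (r = 0.961), Ufd1 (0.948), Tnfsf13 (0.946), Arrb2 (0.941) and Fzd1 (0.941). These are the highest of many coefficients over 9 arrays that differ in treatment group, median signal and beta-actin 3′ to 5′ ratio, and they are given as a description.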

How the data were processed

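Linear signal intensities of 18 Affymetrix arrays, 1 value per probe set, were deposited by the authors. The submitters' processing notes name MAS5 and GCOS, without versions. Total RNA was extracted with Qiagen RNeasy and labelled with Nugen WT Ovation, per the labels' protocols. The deposited columns share a common trimmed mean (2% off either end). Detection calls were not used here.

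Groups came from the sample titles. Probe sets were named from the platform annotation where it gave 1 symbol. Of 31099 probe sets, 20826 had 1 symbol, 436 several, 9780 none and 57 were array controls, which were not tested. Signals were taken as log2 with no pseudocount, the upper 60% of probe sets by mean were kept (18625), and limma 3.58.1 in R 4.3.3 (lmFit, eBayes with trend) was fitted over 9 arrays per tissue or all 18, 2-sided, with Benjamini-Hochberg adjustment over all probe sets tested and a threshold of 0.05. A fold was given as a bound where the lower group's mean was under the filter limit: the higher group's mean over the lower group's mean with its arrays raised to that limit. With every array raised, as first laid down, the Ccl5 bound of RYGB-Fail in hypothalamus was 1.18. A difference with its SE was given for a chemokine probe set that was tested and passed, or whose groups did not overlap, and for a few others singled out in the text after their values were seen. The fit was tested on simulated data. Promoters were RefSeq sequences of GRCr8, read with Python 3.11.15 and pandas 2.3.3. Figures were drawn with matplotlib 3.10.9. The genes and lists were chosen with earlier results of these data known. Alternatives were other pseudocount, filter, floor, scaling, array weight, trend, block and sample choices.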

Additional observations from a re-analysis of the deposited data

How the results depend on the processing

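Of 494 values of 23 chemokine differences under the alternatives, 493 kept direction and side of the threshold, 1 passed (the Ccl6 tissue difference without fat RYGB-Fail array 3) and 0 reversed. Counts over all probe sets were less stable. With array weights they were 39 for RYGB-Success against Pair-Fed, 35 for RYGB-Fail against Pair-Fed, 26 for RYGB-Success against RYGB-Fail, 5 for both bypass groups and 53 for any difference in fat, where the count was 0. With 1 array left out these counts ran from 0 to 22, 0 to 42, 0 to 1116, 0 to 10 and 0 to 202. In hypothalamus RYGB-Success against Pair-Fed (2) gave 1 with the upper 40%, 4 with the floor, 6 with median centring, 6 with array weights, 0 without trend, 5 with only the groups compared and 1 to 65 with 1 array left out. RYGB-Success against RYGB-Fail (1) gave 2 with the pseudocount of 50, no filter, the floor, quantile scaling, median centring and the replicate block, 6 with array weights, 0 without trend, 0 with only the groups compared and 0 to 6 with 1 array left out. Both bypass groups (0) gave 1 with median centring, 1 with array weights and 0 to 1 with 1 array left out, and any difference (2) gave 1 with the upper 40%, 0 without trend and 1 to 5 with 1 array left out. The tissue differences (0 each) gave 11, 17 and 5 with array weights for RYGB-Success against Pair-Fed, RYGB-Fail against Pair-Fed and RYGB-Success against RYGB-Fail, and 0 to 41, 0 to 24 and 0 to 119 with 1 array left out; the first also gave 1 without trend and the second 1 with the replicate block. The cause was not tested. Fat minus hypothalamus gave 8399 to 16135 around 12147. The labels do not say whether same-numbered fat and hypothalamus arrays came from 1 animal, and the fits over 18 arrays treat them as independent. Deviations of same-numbered arrays correlated at -0.126 to 0.290 in fat, -0.163 to 0.070 in hypothalamus and -0.061 to 0.146 between tissues, over 9 pairs each. Of these, 3 in fat, 0 in hypothalamus and 4 between tissues were over 0.1. Differently numbered arrays were not compared, so these values cannot show whether arrays were paired. The replicate block was used only as an alternative. Under it the Ccl6 difference of RYGB-Success from Pair-Fed in hypothalamus was 1.93. Signals near background limit Ccl4, Cx3cr1 and Cx3cl1 in fat and all but Ccl6, Cx3cl1 and the Cxcl12 probe sets 1369633_at and 1388583_at in hypothalamus. They also bear on Ccl3 in RYGB-Fail and Pair-Fed fat and on Ccl6 in Pair-Fed hypothalamus. All or most of those signals lie within the range of the bacterial control probe sets.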
